A study of Caenorhabditis elegans with 10 samples.

Results

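Innexins are the gap junction proteins of invertebrates, and this account covers the 5 innexin genes that are known to build the junctions between germ cells and the somatic gonad of Caenorhabditis elegans. They are inx-14, inx-21 and inx-22, which act in germ cells, and inx-8 and inx-9, which act in the gonadal sheath and the distal tip cell. They were picked by gene name and known role among 46536 genes of the deposited table, the rule itself using no measured level, and all 5 names were found once. The whole innexin family has 25 genes in the table.

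Ribosome-depleted total RNA was sequenced from germline tumours that were cut out of 1-day-old adults of the Bristol strain, raised for 48 h at 25 °C from synchronised L1 larvae. The GLP-1 ON group (5 libraries) carried the gain-of-function allele glp-1(ar202), which keeps the GLP-1 Notch receptor active. The GLP-1 OFF group (5 libraries) carried the null allele glp-1(q175), which removes the receptor. Both groups also carried gld-2(q497) and gld-1(q485), mutations under which germ cells do not complete meiotic entry and form a tumour with or without the receptor, and no group has wild-type gld genes. The alleles are carried by every cell of the worm, the somatic gonad included. The series calls the 5 libraries of a group biological replicates, and how many gonads went into each is not given in the sources used here.

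An innexin hemichannel in the membrane of a germ cell docks with a hemichannel of a sheath cell to form a channel through which small molecules pass. INX-14 is the germ cell subunit common to both known kinds of channel, pairing with INX-21 in channels that germ cells need to proliferate and with INX-22 in channels that hold back oocyte maturation until sperm are present. INX-8 and INX-9 are close relatives that largely stand in for each other on the somatic side, and worms that lack both have very few germ cells. Malonyl-CoA made in the sheath is a known cargo of these junctions.

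The libraries held 17.5 to 38.5 M reads assigned to genes in ON and 18.7 to 29.3 M in OFF, and rRNA genes took 40.1% to 49.6% of the signal in ON and 38.96% to 50.8% in OFF. Across the table, limma with a variance trend on log2(CPM + 1), with Benjamini-Hochberg adjustment over 6833 genes that reached 1 CPM (reads per M gene-assigned reads) in 5 or more libraries, called 1305 genes at an adjusted p under 0.05, or 19.1% of those tested. By direction 458 calls were higher and 847 lower in ON (35.1% higher), and with TMM scaling, which sets library sizes by the bulk of the genes, 1129 were higher and 1247 lower (47.5% higher). All 10 germ cell markers passed the filter, with summed levels of 1873 to 2651 CPM in ON libraries and 1937 to 2795 CPM in OFF, and 3 of them fell, cgh-1, him-3 and htp-3. Of all tested genes 12.4% were called lower. Only 4 of the 10 markers had a lower mean in ON, and their median log2 difference was 0.01. Spermatheca markers, mostly fln-1, summed to 1564 to 2225 CPM in ON libraries and 1270 to 1976 CPM in OFF, and neuron markers, mostly snb-1, to 24.4 to 32.2 CPM in ON libraries and 23.9 to 36.0 CPM in OFF, with no call by limma in either list and 1 gene, from the spermatheca list, at an unadjusted p under 0.05 (edgeR called 1 spermatheca gene lower, DESeq2 1 higher and 1 lower). Pharynx markers summed to at most 3.09 CPM in ON libraries and 0.955 CPM in OFF, intestine markers to at most 4.31 CPM in ON libraries and 11.9 CPM in OFF, and hypodermis markers to at most 3.54 CPM in ON libraries and 3.96 CPM in OFF. Distal tip cell markers summed to 3.401 to 6.59 CPM in ON libraries and 4.22 to 5.49 CPM in OFF, with lag-2, the Notch ligand gene of that cell, at 0.0349 ± 0.0356 CPM in ON libraries and 0.105 ± 0.106 CPM in OFF libraries (SD, n = 5 each).

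In the Ensembl annotation of assembly WBcel235 the 5 genes lie at 3 places in the genome. The genes inx-22 (chromosome I, 3608518 to 3611844, plus strand) and inx-21 (chromosome I, 3611942 to 3618317, plus strand) follow each other with 97 bases between them. The gene inx-14 stands alone at 7350309 to 7352235 on the minus strand of chromosome I, with 3 annotated transcripts. The sheath genes inx-8 (chromosome IV, 11673843 to 11675635, plus strand) and inx-9 (chromosome IV, 11676354 to 11678497, plus strand) are neighbours with 718 bases between them. Exon lengths were 1577 bases for inx-14, 1656 for inx-21, 1589 for inx-22, 1356 for inx-8 and 1301 for inx-9. The 3′ end of inx-14 shares 78 bases of exon with kbrl-1 on the opposite strand, and that of inx-9 shares 62 bases with ZK792.4 on the opposite strand. Whether counting used strand is not given in the sources used here, so reads in those stretches may belong to either gene. INX-8 and INX-9 are similar proteins, and reads that match both genes could have been split or dropped, which makes their separate levels less certain than their sum.

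All 5 innexins were expressed above 1 CPM in every library. Per kilobase of exon, the order in ON was inx-21 at 38.6 ± 2.10 CPM per kb, inx-14 at 33.4 ± 3.30, inx-22 at 23.9 ± 2.95, inx-8 at 16.5 ± 2.31 and inx-9 at 2.36 ± 0.110 (SD, n = 5). In OFF it was inx-21 at 42.1 ± 5.51 CPM per kb, inx-22 at 29.8 ± 3.34, inx-14 at 26.2 ± 3.54, inx-8 at 20.7 ± 2.86 and inx-9 at 3.002 ± 0.543 (SD, n = 5). The germ cell genes inx-14 and inx-22 thus stood in opposite order in the groups. In 5 of 5 ON libraries inx-14 was above inx-22 per kilobase, and in 0 of 5 OFF libraries was it so. Among neighbours in the order, the ranges over libraries overlapped for inx-21 with inx-14 and for inx-22 with inx-8 in ON, and for inx-22 with inx-14 and inx-14 with inx-8 in OFF. Within each single library, however, inx-21 stood above inx-14 and inx-22 above inx-8 in all 5 ON and all 5 OFF libraries.

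**Figure D1:**
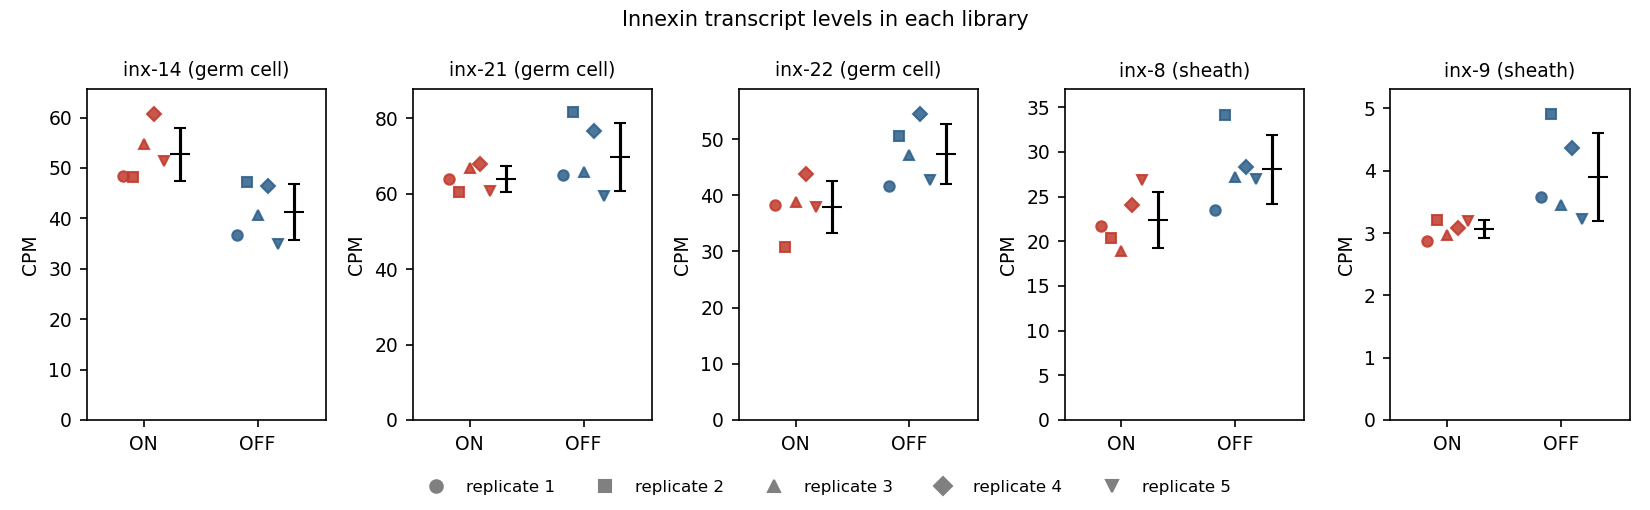
CPM of the 5 innexin genes in each library, with ON libraries on the left of each panel and OFF libraries on the right. Symbols mark replicate numbers and the black bars give the mean ± SD (n = 5). All ON libraries lie above all OFF libraries for inx-14 (lowest ON 48.2 CPM, highest OFF 47.3 CPM), and all ON libraries lie below all OFF libraries for inx-9 (highest ON 3.20 CPM, lowest OFF 3.23 CPM).

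The shared germ cell subunit gene inx-14 rose in ON. Its level was 48.3, 48.2, 54.8, 60.7 and 51.4 CPM in ON replicates 1 to 5, against 36.7, 47.3, 40.7, 46.5 and 35.0 CPM in OFF replicates 1 to 5. The groups did not overlap, but the gap between them was narrow, since OFF replicates 2 and 4 came close to ON replicates 1 and 2. The mean was 52.7 ± 5.21 CPM in ON libraries and 41.2 ± 5.58 CPM in OFF libraries (SD, n = 5), a ratio of 1.28. The limma log2 difference, ON minus OFF, was 0.35 ± 0.105 (SE; 95% interval 0.13 to 0.57; adjusted p = 0.023), and an exact two-sided permutation test of the library labels gave p = 0.00794, the smallest it can give. The call was lost when ON replicate 3, ON replicate 4, OFF replicate 3 or OFF replicate 5 was left out (limma adjusted p from 0.0523 to 0.0674). The opposite-strand neighbour kbrl-1, which shares 78 bases of exon, was at 11.4 ± 0.543 CPM in ON libraries and 20.02 ± 2.58 CPM in OFF libraries (SD, n = 5). The part of the shared bases in the inx-14 values was not tested.

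Neither partner gene of inx-14 was called higher. For inx-21, the partner in channels for proliferation, the level was 63.98, 60.4, 66.9, 67.9 and 60.6 CPM in ON libraries and 65.0, 81.7, 65.8, 76.6 and 59.5 CPM in OFF. The groups overlapped, with OFF replicates 2 and 4 above every ON library and OFF replicate 5 below every ON library. The log2 difference of -0.11 did not pass the limma test (95% interval -0.32 to 0.09; adjusted p = 0.468), and its interval held both no change and a fall of 0.32.

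For inx-22, the partner in channels that restrain oocyte maturation, transcripts fell in ON. The level was 38.2, 30.7, 38.9, 43.8 and 37.9 CPM in ON replicates 1 to 5 and 41.7, 50.5, 47.2, 54.4 and 42.7 CPM in OFF replicates 1 to 5. Of the 5 ON libraries 4 lay below every OFF library, and ON replicate 4 lay within the OFF range. The mean was 37.9 ± 4.68 CPM in ON libraries and 47.3 ± 5.31 CPM in OFF libraries (SD, n = 5), a log2 difference of -0.31 ± 0.106 (SE; limma adjusted p = 0.0435). The exact permutation test gave p = 0.0238. This call was close to the threshold and was lost in 7 of the 10 fits that left out 1 library (ON replicates 1, 2, 3 and 5 and OFF replicates 2, 3 and 4), with adjusted p up to 0.134.

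Ratios between genes of the same library do not depend on library scaling, and those that involve inx-14 separated the groups. The ratio of inx-14 to inx-22 in CPM was 1.26, 1.57, 1.41, 1.38 and 1.36 in ON replicates 1 to 5 and 0.880, 0.936, 0.863, 0.855 and 0.819 in OFF replicates 1 to 5. Every ON library was above every OFF library, with a wide gap. The ratio of inx-14 to inx-21 ran from 0.756 to 0.893 in ON and from 0.565 to 0.619 in OFF, again without overlap. Of the summed germ cell innexin signal, inx-14 made up 34.1 ± 1.17% in ON libraries and 26.0 ± 0.451% in OFF libraries (SD, n = 5), and inx-22 made up 24.5 ± 1.44% in ON and 29.9 ± 1.27% in OFF, in neither case with overlap between the groups. For inx-21 the share was 41.5 ± 1.59% in ON and 44.0 ± 1.28% in OFF, and the groups overlapped. The sum of the germ cell genes was 155 ± 12.5 CPM in ON libraries and 158 ± 19.4 CPM in OFF, so the mix of transcripts differed while the sums overlapped. These ratios are descriptions of chosen genes and were given no test.

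**Figure D2:**
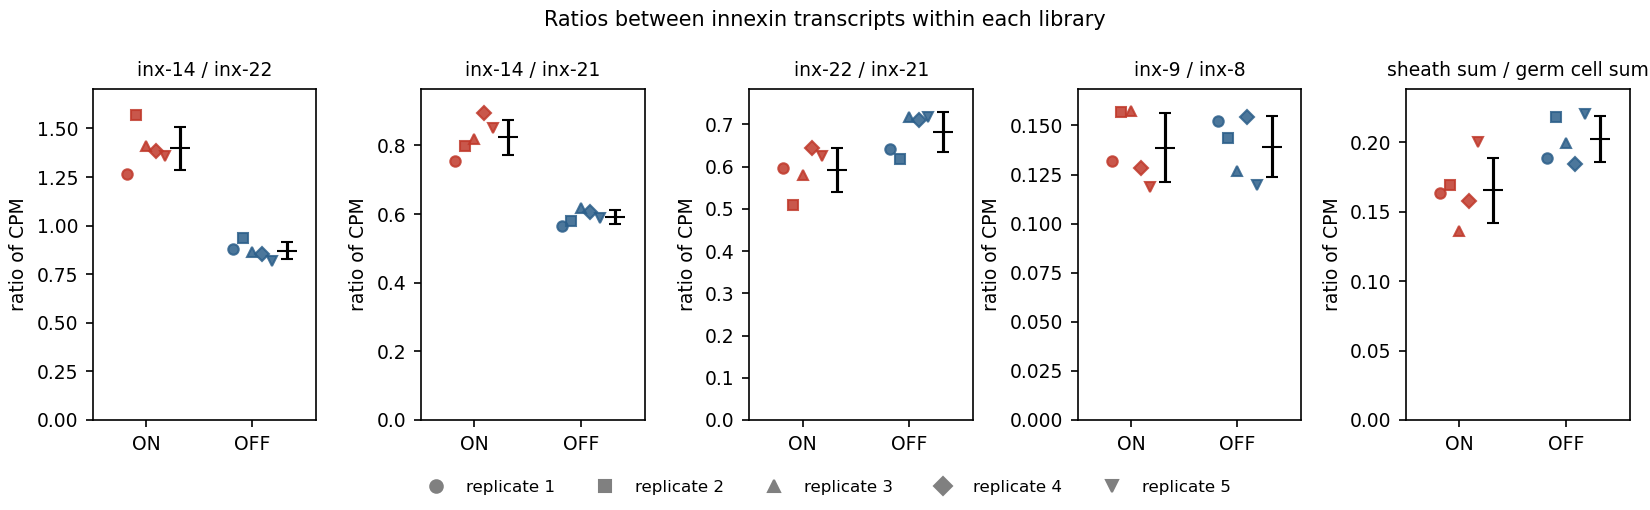
Ratios of CPM between innexin genes within each library, ON on the left and OFF on the right of each panel, with symbols for replicate numbers and bars for the mean ± SD (n = 5). The groups do not overlap for inx-14 over inx-22 (lowest ON 1.26, highest OFF 0.936) and inx-14 over inx-21 (lowest ON 0.756, highest OFF 0.619), and they overlap for inx-22 over inx-21, inx-9 over inx-8 and the sheath sum over the germ cell sum.

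The ratio of the neighbouring genes inx-22 and inx-21 was 0.591 ± 0.0526 in ON libraries and 0.681 ± 0.0473 in OFF libraries (SD, n = 5), with ranges of 0.508 to 0.645 in ON libraries and 0.618 to 0.718 in OFF that overlapped.

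The sheath genes were lower on average in ON, but neither passed the test on unscaled CPM. For inx-8 the level was 21.8, 20.4, 18.9, 24.1 and 26.9 CPM in ON replicates 1 to 5 and 23.5, 34.2, 27.2, 28.3 and 27.02 CPM in OFF replicates 1 to 5. ON replicates 1, 2 and 3 lay below all OFF libraries, while ON replicates 4 and 5 lay within the OFF range. The mean was 22.4 ± 3.14 CPM in ON libraries and 28.1 ± 3.88 CPM in OFF libraries (SD, n = 5), a log2 difference of -0.31 ± 0.111 (SE; 95% interval -0.54 to -0.08; limma adjusted p = 0.0545; exact permutation p = 0.0397). It was called after TMM scaling (log2 difference -0.27, limma adjusted p = 0.0206), by edgeR on whole reads (adjusted p = 0.0239), and without ON replicate 5 or OFF replicate 1 (adjusted p = 0.0286 and 0.0201).

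Transcripts of inx-9 were the rarest of the 5, and rested on 54 to 123 reads per library in ON and 67 to 128 in OFF. The level was 2.87, 3.20, 2.97, 3.08 and 3.19 CPM in ON libraries and 3.58, 4.91, 3.45, 4.37 and 3.23 CPM in OFF. All ON libraries were below all OFF libraries, although the highest ON library nearly touched the lowest OFF library. The log2 difference of -0.26 ± 0.108 (SE) gave a limma adjusted p of 0.1 and an exact permutation p of 0.00794. The ON libraries varied by 4.65% (SD over mean, n = 5), less than the 10.5% that counting error alone gives at these reads, and the OFF libraries varied by 18.1%, against 10.3% from counting. The call was gained after TMM scaling (adjusted p = 0.0374) and by edgeR (adjusted p = 0.0469).

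The proportion of the sheath genes to each other was close to equal in the groups. The ratio of inx-9 to inx-8 was 0.139 ± 0.0175 in ON libraries and 0.139 ± 0.0155 in OFF libraries (SD, n = 5), and per kilobase inx-8 was 6.11 to 8.07 times inx-9 in ON libraries and 6.22 to 8.03 times in OFF libraries. Their sum was 25.5 ± 3.20 CPM in ON libraries and 31.96 ± 4.47 CPM in OFF, and the sum over that of the germ cell genes was 0.165 ± 0.0233 in ON libraries and 0.202 ± 0.0166 in OFF. The ON range of that ratio, 0.136 to 0.2005, overlapped the OFF range of 0.184 to 0.221, and ON replicate 5 was the only ON library inside it.

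Other markers of the sheath were also lower on average in ON. In bulk RNA given as CPM, fewer sheath cells per gonad, less RNA per sheath cell and more RNA from other cells cannot be told apart. Across the table, 12.4% of all tested genes were called lower in ON, and the median log2 difference was -0.05. Of 4 sheath markers besides inx-8 and inx-9, all had a lower mean in ON, and 1 of the 2 that passed the filter was called. This was lim-7, a LIM homeobox gene of the sheath, which fell to 1.16 ± 0.190 CPM in ON, against 1.77 ± 0.333 CPM in OFF libraries (SD, n = 5; limma adjusted p = 0.0332). That call was lost in 7 of the 10 fits that left out 1 library (ON replicates 1 to 4 and OFF replicates 2, 3 and 5), with adjusted p up to 0.099, and with no filter on low values (adjusted p = 0.0811). The homeobox gene ceh-18 was at 0.342 ± 0.195 CPM in ON libraries and 0.554 ± 0.130 CPM in OFF, and the adenylyl cyclase gene acy-4 at 0.778 ± 0.261 CPM in ON libraries and 0.884 ± 0.240 CPM in OFF, both below the filter of the main fit. The engulfment receptor gene ced-1 carried most of the summed sheath markers, 52.3 to 75.9 CPM in ON libraries and 55.1 to 85.5 CPM in OFF, and had no call (adjusted p = 0.509). None of the 4 was at 0 in every library. Muscle genes that the sheath shares with body wall muscle summed to 14.7 to 34.0 CPM in ON libraries and 20.9 to 32.6 CPM in OFF. All 7 had a lower mean in ON, and 2 of them fell. Without ON replicate 5 the count was 5, where 10.5% of all tested genes were called lower. It was 3 without OFF replicate 1, where 15% were lower. Without any other single library the count stayed at 2, where 8.64% to 13.3% were lower. With TMM scaling it was also 2, where 18.2% were lower. The troponin T gene mup-2 was at 2.98 ± 0.900 CPM in ON libraries and 4.45 ± 0.469 CPM in OFF libraries (limma adjusted p = 0.0126), and the tropomyosin gene lev-11 at 1.90 ± 0.267 CPM in ON libraries and 3.22 ± 0.951 CPM in OFF libraries (adjusted p = 0.0066). Markers of body wall muscle without known use in the sheath summed to 4.76 to 10.8 CPM in ON libraries and 5.87 to 9.38 CPM in OFF, and of 3 tested 0 had a call by limma, edgeR or DESeq2, 1 had an unadjusted limma p under 0.05, and 1 was called lower without ON replicate 5. The part of sheath content in the inx-8 and inx-9 values was not tested.

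The level of inx-8 was far above that of the sheath transcription factor gene lim-7. Per kilobase it was 24.1 to 32.5 times the lim-7 level in ON libraries and 18.2 to 32.5 times in OFF libraries, and the groups overlapped. These data do not say in which cells the inx-8 transcripts were made.

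**Figure D3:**
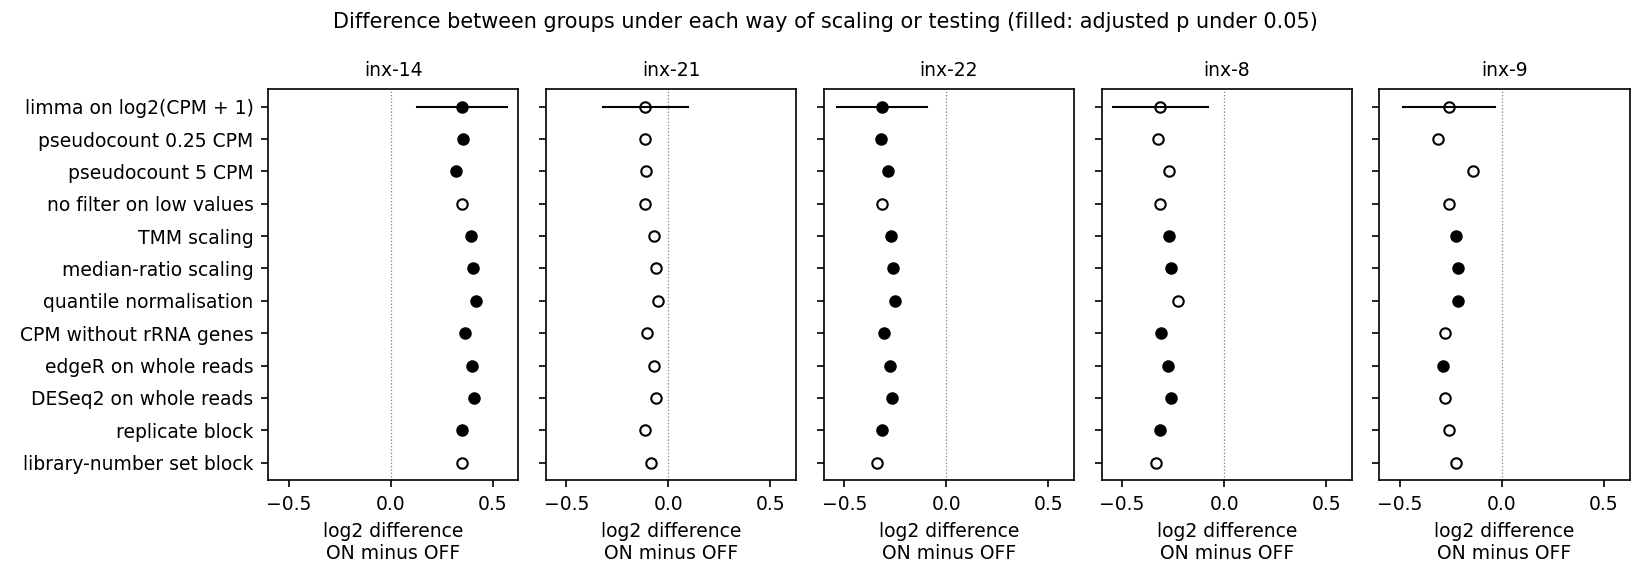
Log2 difference, ON minus OFF, of each innexin gene (horizontal axis) under 12 ways of scaling or testing (rows). Filled points have an adjusted p under 0.05 and the line in the top row is the 95% interval of the limma fit. The sign of each gene is the same in every row shown, positive for inx-14 and negative for the other 4 genes, while the calls of inx-8 and inx-9 depend on the scaling.

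Over 12 alternatives with all libraries, the adjusted p ran from 2.4e-12 to 0.0739 for inx-14, from 0.252 to 0.707 for inx-21, from 4.9e-04 to 0.101 for inx-22 and from 0.0143 to 0.134 for inx-8, and over 11 from 0.0294 to 0.26 for inx-9. Calls were common across the table, and the members' counts are read against that. Of the 5 genes, inx-14 was called higher and inx-22 lower on unscaled CPM, where 6.7% of all tested genes were called higher and 12.4% lower. With TMM scaling 1 member was higher and 3 were lower, where 34.8% of tested genes were called, 16.5% higher and 18.2% lower. By edgeR on whole reads 1 member was higher and 3 were lower as well, where 34.9% were called, 16.8% higher and 18.1% lower. Every ON library was on one side of every OFF library in 14.9% of all tested genes, 5.01% with ON higher and 9.92% with ON lower, and in 2 of the 5 members, inx-14 (ON higher) and inx-9 (ON lower). The median log2 difference of all tested genes was -0.05.

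The library numbers in the labels fall into 3 runs, 56 to 58 (1 ON, 2 OFF), 85 to 88 (1 ON, 2 OFF) and 127 to 130 (3 ON, 1 OFF). What the runs stand for is not given in the labels. Within them the log2 difference of inx-14 was 0.21, 0.14 and 0.65, and that of inx-22 was -0.26, -0.70 and -0.09. For inx-21 it was -0.18, -0.23 and 0.13, so its sign was not the same in all 3. The values were -0.37, -0.43 and -0.22 for inx-8 and -0.43, -0.22 and -0.05 for inx-9. The ratio of inx-14 to inx-22 was higher in ON by 0.48, 0.87 and 0.76 on the log2 scale in the 3 runs. With the runs as a block in limma the adjusted p was 0.0739 for inx-14, 0.0806 for inx-22, 0.0936 for inx-8, 0.26 for inx-9 and 0.707 for inx-21, each above the threshold of 0.05.

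The other innexins contributed little. Summed per kilobase, the 5 genes made up 89.9% to 91.2% of the innexin signal in ON libraries and 91.4% to 92.1% in OFF libraries. Of the other 20 innexins 13 stayed under 1 CPM in every library and 5 passed the filter. Of these 5, inx-11 rose and the others had no call. Its level was 4.95, 4.46, 4.81, 5.66 and 4.20 CPM in ON libraries and 1.44, 2.30, 1.76, 1.91 and 2.08 CPM in OFF. No ON library came near the OFF range. The log2 difference was 1.01 ± 0.109 (SE; limma adjusted p = 9.7e-07), and 0.93 to 1.07 within the 3 runs of library numbers, and the ratio of mean CPM was 2.54. The most abundant other innexin, inx-7, averaged 8.97 ± 0.755 CPM in ON libraries against 10.2 ± 1.21 CPM in OFF libraries, with no call (adjusted p = 0.277). Nor had inx-5, inx-12 and inx-13 a call (adjusted p = 0.870, 0.289 and 0.280), with group means of 1.004 to 2.09 CPM. For inx-13 every ON library was nonetheless above every OFF library (exact permutation p = 0.00794). For inx-12, 4 of 5 ON libraries were below every OFF library (exact permutation p = 0.0397). Below the filter, inx-10 had a ratio of mean CPM, ON over OFF, of 1.595 (exact permutation p = 0.0397). With CPM without rRNA genes 2 of 7 other innexins were called higher, and inx-13 was not among them (adjusted p = 0.133).

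**Figure D4:**
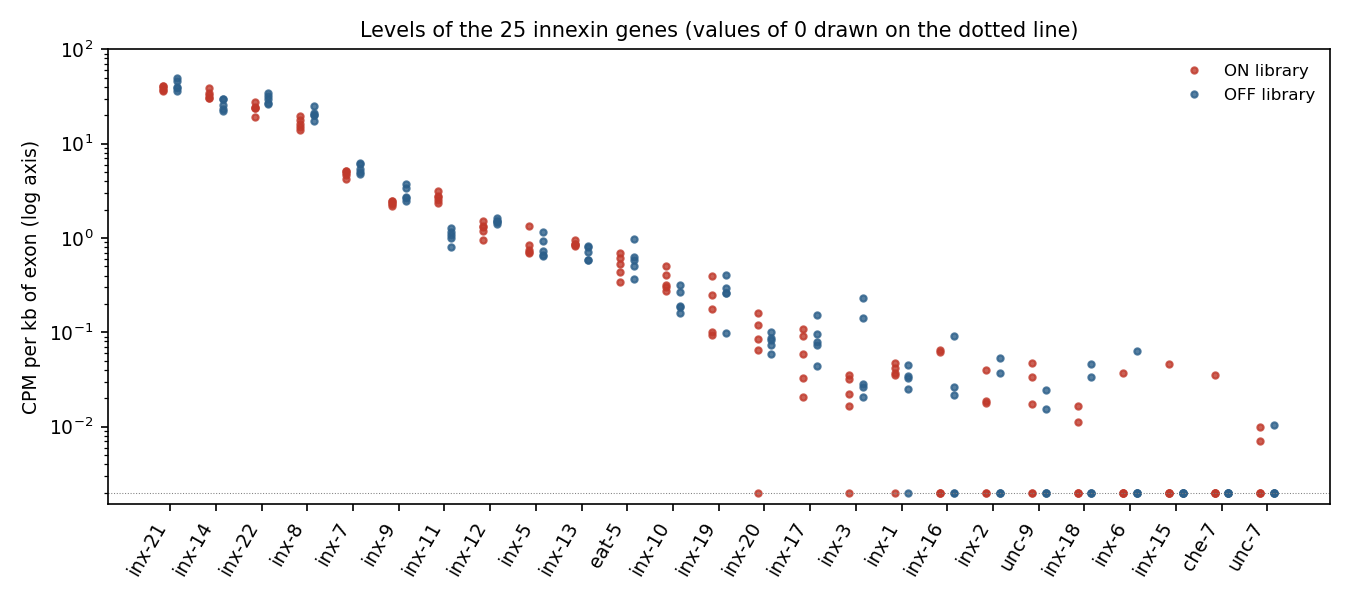
Level of the 25 innexin genes in each library as CPM per kilobase of annotated exon, on a log axis, ordered by their mean, with values of 0 on the dotted line and ON libraries (red) to the left of OFF libraries (blue). The genes inx-21, inx-14, inx-22 and inx-8 lie above all other innexins, inx-9 (2.21 to 3.77 CPM per kb) lies below inx-7 (4.17 to 6.17 CPM per kb), and 13 genes never reach 1 CPM.

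The steadiest companion genes were sought as those whose log2(CPM + 1) kept the most constant distance to a member, measured as the SD of that distance over the 10 libraries, among tested genes whose mean reached 5 CPM. For inx-14 they were ztf-17 (SD 0.0538), the microRNA processing gene pash-1 (0.0562) and the trehalase gene tre-2 (0.0577), with a median of 0.253 over all 5369 genes. For inx-22 they were Y39E4B.5 (0.0544), bath-40 (0.0595) and the PUF family gene puf-11 (0.0601), and for inx-21 C37A5.7, set-4 and dxbp-1 (0.0297 to 0.0312). For inx-8 they were ctf-4, mecr-1 and Y111B2A.10 (0.0926 to 0.0990), and for inx-9 T22C1.5, D2096.7 and nstp-1 (0.0414 to 0.0458). None of the innexins that could be ranked was among the steadiest companions of another. With a mean under 5 CPM, inx-9 could not be ranked as a companion, so the search cannot say whether it was one of inx-8. In the other direction, inx-8 stood at position 1332 of 5370 for inx-9 (SD 0.150). Between inx-14 and inx-22 the SD was 0.361, which ranked inx-22 at position 4479 of 5369 for inx-14. Between the neighbours inx-21 and inx-22 it was 0.151, at position 1066 for inx-22 and 2580 for inx-21. Positions between members ran from 455 of 5370, for inx-21 as companion of inx-9, to 5046 of 5369, for inx-14 as companion of inx-8. The SD was taken over both groups together, so a difference between ON and OFF is part of it. The positions are therefore not independent of the differences given above. All points share the same 10 libraries, with the same scaling.

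Of 16 genes of oocyte maturation, signalling genes and RNA-binding regulators together, 11 were tested. By limma on unscaled CPM 5 were called lower and 0 higher, where 12.4% of all tested genes were called lower, and with TMM scaling 7 were lower and 0 higher, where 18.2% were lower. The count of lower genes was 2 without ON replicate 1, ON replicate 2, OFF replicate 2, OFF replicate 3 or OFF replicate 4, 3 without ON replicate 5, and 2 with no filter on low values. The falls called in each of these fits were those of lin-41, an RNA-binding regulator of oocyte growth, at 35.98 ± 6.17 CPM in ON libraries and 56.96 ± 8.79 CPM in OFF libraries (SD, n = 5; limma adjusted p = 5.7e-04), and oma-2, a zinc finger gene needed for maturation, at 21.98 ± 3.15 CPM in ON libraries and 32.5 ± 5.21 CPM in OFF (adjusted p = 0.0025). The Eph receptor gene vab-1, which binds the sperm signal, was at 70.9 ± 9.81 CPM in ON libraries and 94.7 ± 16.9 CPM in OFF (adjusted p = 0.0286), and the PUF family genes puf-3 and puf-11 were called lower as well. The calls of vab-1, puf-3 and puf-11 were lost in 5, 6 and 6 of the 10 fits that left out 1 library, and that of puf-11 also with the run of library numbers as a block (adjusted p = 0.068). The median log2 difference of the list was -0.35, against -0.05 for all tested genes. The sheath signalling genes acy-4, gsa-1, kin-1 and kin-2 and the sheath factor gene ceh-18 were too low to test, so the calls of this list say nothing of them. Among the tested genes, goa-1 was at 55.95 ± 6.44 CPM in ON libraries and 57.4 ± 7.59 CPM in OFF libraries (SD, n = 5). It had no call (limma adjusted p = 0.866).

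Genes of malonyl-CoA and fatty acid synthesis changed in both directions: of 18 on the list 12 were tested, and of these 2 were called higher and 2 lower, where 6.7% of all tested genes were higher and 12.4% lower. Fatty acid synthase, fasn-1, which uses malonyl-CoA, fell to 80.2 ± 22.8 CPM in ON, against 122 ± 23.4 CPM in OFF libraries (SD, n = 5; limma adjusted p = 0.0073), with ON replicate 5 at 121 CPM within the OFF range. The malonyl-CoA decarboxylase gene mlcd-1 fell to 16.4 ± 1.52 CPM in ON, against 21.5 ± 2.61 CPM in OFF (adjusted p = 0.0127). The fatty acid desaturase gene fat-1 rose to 126 ± 18.2 CPM in ON, against 95.7 ± 12.4 CPM in OFF (adjusted p = 0.0183), and the desaturase gene fat-2 to 2.43 ± 0.486 CPM in ON, against 1.502 ± 0.184 CPM in OFF (adjusted p = 0.0076). The acetyl-CoA carboxylase gene pod-2, whose product makes malonyl-CoA, was at 88.1 ± 18.8 CPM in ON libraries and 83.2 ± 17.1 CPM in OFF and had no call (adjusted p = 0.760). The median log2 difference of this list was 0.02, and with TMM scaling 4 were higher and 5 lower, where 16.5% and 18.2% of all tested genes were so called. Leaving out 1 library gave 1 to 3 higher and 1 to 3 lower: the call of fat-1 was lost without ON replicate 3, ON replicate 4 or OFF replicate 5, that of mlcd-1 without ON replicate 5 and that of fasn-1 without OFF replicate 2. With the run of library numbers as a block the call of mlcd-1 was lost (adjusted p = 0.0639).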

How the data were processed

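Gene-level values of 10 libraries, 5 ON and 5 OFF, were analysed. The deposited signal is the authors' CPM. Reads were handled with STAR 2.0.4b, Subread featureCounts 1.4.5, edgeR and limma, per the submitters' processing notes. The sources used here do not give the genome build, annotation release, strand setting or treatment of multi-mapping reads. The table had 46998 rows, and 462 that repeat a gene identifier with equal values were dropped. Groups and replicate numbers came from sample titles, and columns were matched through the sample descriptions.

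CPM divided by the value of 1 read (0.0260 to 0.0571 CPM) gave whole numbers within 0.01 read for 100% of values above 0, so counts of reads could be recovered. The main test was limma 3.58.1 (R 4.3.3) on log2(CPM + 1), with no further scaling, which understates changes of genes near 1 CPM. The design was written for CPM, and the unit is listed as a signal since repeated rows lift column sums over the CPM total. Exact permutation tests were two-sided. Levels were compared between genes as CPM per kilobase of merged exons in the Ensembl annotation of WBcel235, to which 46363 genes matched by identifier. That annotation says nothing of the build the authors used. The fit was tested on simulated counts, with planted changes that were all larger than the differences of the members. That test says nothing of changes as small as theirs.

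Alternatives were pseudocounts of 0.25 and 5 CPM, other filters, TMM, median-ratio and quantile scaling, CPM without rRNA genes, edgeR 4.0.16 and DESeq2 1.42.0 on whole reads, blocks for replicate number and library-number run, and leaving out each library. The members and lists were chosen with earlier results of these data known. Named genes were the 5 members, other innexins that passed the filter, up to 3 called genes per list by size and the 3 steadiest companions per member. Other genes (puf-3, puf-11, goa-1, kin-2, gsa-1, mlcd-1, pod-2, kbrl-1, ani-2, the markers and the untested innexins) were named after their values were seen. No sequence is shown, because no sequence of these genes was used here.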

Additional observations from a re-analysis of the deposited data

Results flagged for a closer look

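Among the members, the other tested innexins and the ratios between members, 42 groups of 5 libraries were screened for a single library far from the others, and 1 was found, where chance gives about 1 in 20. It was inx-5, an innexin outside the 5 members, at 2.26 CPM in ON replicate 5, while ON replicates 1 to 4 had 1.18 to 1.43 CPM. None of the 5 members had such a library in either group.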

How the results depend on the processing

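The signs of the 5 differences held in all alternatives with a test. For inx-14 the call was lost with no filter on low values (log2 difference 0.35, adjusted p = 0.0604) and with the library-number run as a block (0.35, adjusted p = 0.0739), and for inx-22 likewise (-0.31, adjusted p = 0.101, and -0.34, adjusted p = 0.0806); the cause was not tested. A call of inx-8 was gained with TMM (-0.27), median-ratio scaling (-0.26), CPM without rRNA genes (-0.31), edgeR (-0.27), DESeq2 (-0.26) and the replicate block (-0.31). A call of inx-9 was gained with TMM (-0.22), median-ratio (-0.21) and quantile scaling (-0.22) and edgeR (-0.29). At a filter of 5 CPM inx-9 was not tested. Leaving out 1 library gave 0.30 to 0.40 for inx-14, -0.17 to -0.06 for inx-21, -0.37 to -0.24 for inx-22, -0.38 to -0.24 for inx-8, -0.31 to -0.19 for inx-9, 981 to 1424 genes called, and -0.37 to -0.23 for the log2 ratio of the sheath sum to the germ cell sum (-0.30 with all libraries). Values that moved by more than the SD between replicates within a run of library numbers were 0.14 and 0.65 for inx-14, 0.13 for inx-21, -0.70 and -0.088 for inx-22 and -0.43 and -0.051 for inx-9. Counts per gene list under each alternative, and the ratio of sums, were added after seeing the data. The 1305 calls across the table became 844 with a filter of 5 CPM, 2376 with TMM, 2372 with median-ratio scaling, 2450 with quantile scaling, 2212 without rRNA genes, 2382 with edgeR and 2534 with DESeq2.

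Replicate numbers are shared between the groups. Deviations of same-numbered libraries correlated by -0.0242 for number 2 and by 0.173 to 0.461 for the others, and 3 of 5 ON libraries correlated best with their own number. The labels state no pairing by number, and the main test used none. These values do not settle whether the numbers are pairs. With the replicate block 1545 genes were called (517 higher, 1028 lower). Depth limited inx-9 most, at 54 to 128 reads per library.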

Other observations

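Germ cells of the gonad are also joined by open bridges to a common core, the rachis. Of 8 genes for these bridges all were tested and 0 had a call by limma on unscaled CPM (0 at an unadjusted p under 0.05), with TMM scaling, by edgeR or by DESeq2, while 1 was called lower with quantile normalisation and 1 with CPM without rRNA genes. Examples are the anillin gene ani-2 at 232 ± 33.8 CPM in ON libraries and 236 ± 33.9 CPM in OFF and the non-muscle myosin gene nmy-2 at 780 ± 99.1 CPM in ON libraries and 724 ± 133 CPM in OFF libraries (SD, n = 5).

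Among single innexins known from other tissues, unc-7 reached at most 0.0383 CPM and unc-9 at most 0.104 CPM in any library, inx-19 reached 0.652 CPM, and eat-5, a pharyngeal innexin, was at 0.791 ± 0.215 CPM in ON libraries and 0.929 ± 0.343 CPM in OFF libraries (SD, n = 5), with 1.48 CPM in OFF replicate 2.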
